A study of Mus musculus with 14 samples.

Results

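The glutathione transferase genes Gstm1, Gstm5, Gstm7, Gsta4, Gstp1, Gsto1, Gstt1, Gstk1, Mgst1 and Mgst3 were followed across 3 classes of sorted cells, labelled precursor cells. The classes differed in their content of reactive oxygen species (ROS) and, as given below, also in markers of other cell types. They are the rows of the deposited table whose Ensembl identifiers map to these mouse symbols, 10 of the 15119 genes listed. RNA was measured in 14 libraries, 5 of class ROS+, 5 of class ROS++ and 4 of class ROS+++, named for increasing ROS content. All cells came from the dentate gyrus of untreated B6.Cg-Tg(Nes-EGFP)1Yamm mice, labelled adult without an age, and all were GFP-positive. These mice carry EGFP under regulatory sequence of the nestin gene, which neural precursor cells use and which cells of vessel walls can also use. The cells were sorted on GFP together with dihydroethidium, a dye that becomes fluorescent when oxidised. The labels do not say whether the libraries of a class came from separate animals or pools, and the p-values therefore cover the spread between libraries alone, which may be technical.

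Glutathione transferases join the tripeptide glutathione to electrophiles such as lipid peroxidation products, quinones and halogenated compounds. The cytosolic enzymes are grouped by sequence into classes named with Greek letters, of which mu (Gstm), alpha (Gsta), pi (Gstp), omega (Gsto) and theta (Gstt) are represented here. Gstk1 is the kappa enzyme of mitochondria and peroxisomes, and Mgst1 and Mgst3 belong to an unrelated family of membrane proteins that also reduce lipid hydroperoxides with glutathione. In the brain, glutathione and its transferases are best known from astrocytes and oligodendrocytes.

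Levels are given in CPM, a gene's reads relative to the library total, recovered from the deposited log2 values. The libraries held 20832009 to 25313902 reads over the listed genes for ROS+, 18325361 to 23454022 for ROS++ and 12704227 to 20998589 for ROS+++, and 3 reads, the most that a count of 0 allows, correspond to 0.119 to 0.236 CPM. Every member reached at least 1 CPM in all 14 libraries, and the fewest reads of a member in a library were 60, for Mgst1. Markers of the labelled cell type were present, with nestin (Nes) at 16.6 ± 4.63 CPM (ROS+), 95.5 ± 18.8 CPM (ROS++) and 227 ± 77.7 CPM (ROS+++). Sox2, a stem cell transcription factor, stood at 27.6 ± 4.78, 55.1 ± 18.7 and 13.4 ± 8.67 CPM in the same order. Gfap and Hopx, markers of radial glia-like stem cells, were lowest in ROS+. In that order Gfap was at 7.49 ± 7.40, 179 ± 53.6 and 128 ± 65.8 CPM, and Hopx at 1.55 ± 1.51, 52.1 ± 56.8 and 34.2 ± 20.4 CPM. Other cell types moved with the classes. The summed level of 12 mural cell markers was 201 to 700.5 CPM across ROS+ libraries, 7242 to 22097 across ROS++ and 48317 to 55824 across ROS+++, and that of 9 neuroblast markers was 12090 to 17392, 981 to 2458 and 29.1 to 214 CPM. In bulk RNA, fewer cells of a type and less RNA per cell cannot be told apart. The library labelled ROS+++ replicate 3 had the lowest sums of its class for 10 radial glia markers, at 2172 CPM against 3901 to 5296 CPM in the other ROS+++ libraries, and for 7 astrocyte markers, at 648 CPM against 1075 to 2332 CPM. It was also the lowest ROS+++ library in 5 of the 10 members, so results whose call or size its removal changes most are given with and without it.

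The mu genes lie in 1 cluster on chromosome 3 (GRCm38, GENCODE M21). Gstm5 (ENSMUSG00000004032, 107895821 to 107898686, forward strand) is followed after 27648 bases by Gstm7 (ENSMUSG00000004035, 107926334 to 107931817, reverse strand), and Gstm1 (ENSMUSG00000058135, 108012255 to 108017973, reverse strand) begins 80438 bases beyond that, with Gstm6, Gstm3 and Gstm2 between them. Gsta4 (ENSMUSG00000032348) lies on chromosome 9 at 78182774 to 78209349, forward strand. Chromosome 19 carries Gstp1 (ENSMUSG00000060803, 4035407 to 4037985, reverse strand) and Gsto1 (ENSMUSG00000025068, 47854970 to 47864790, forward strand, 744 bases from Gsto2). Gstt1 (ENSMUSG00000001663) lies on chromosome 10 at 75783813 to 75798584, reverse strand, 2399 bases from Gstt3 and 32530 from Gstt2. Chromosome 6 carries Gstk1 (ENSMUSG00000029864, 42245935 to 42250447) and Mgst1 (ENSMUSG00000008540, 138140316 to 138156755), both on the forward strand, and chromosome 1 carries Mgst3 (ENSMUSG00000026688, 167371966 to 167393841, reverse strand). The table gives 1 value per gene and does not divide reads between exons, introns and UTRs.

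The start regions of 5 members that the results below turn on are printed here, because neighbouring mu genes and the pair Gstk1 and Gsto1 differed in opposite directions between classes. Each is the stretch of the RefSeq promoter window (GRCm38.p6) that lies before the annotated gene, written 5′ to 3′ on the gene's own strand, with matches to the motifs below in capitals. The windows are chr3:107895604-107895820 (+) for Gstm5, chr3:107931818-107932067 (-) for Gstm7, chr3:108017974-108018223 (-) for Gstm1, chr6:42245685-42245934 (+) for Gstk1 and chr19:47854723-47854969 (+) for Gsto1.
Gstm5: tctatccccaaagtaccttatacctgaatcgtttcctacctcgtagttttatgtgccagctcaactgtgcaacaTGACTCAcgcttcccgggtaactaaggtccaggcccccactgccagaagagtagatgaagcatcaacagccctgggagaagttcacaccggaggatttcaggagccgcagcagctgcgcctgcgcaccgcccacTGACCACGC
Gstm7: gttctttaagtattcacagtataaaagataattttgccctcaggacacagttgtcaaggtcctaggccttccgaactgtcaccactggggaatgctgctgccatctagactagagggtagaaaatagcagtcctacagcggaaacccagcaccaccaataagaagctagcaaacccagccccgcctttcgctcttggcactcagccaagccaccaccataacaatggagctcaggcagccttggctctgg
Gstm1: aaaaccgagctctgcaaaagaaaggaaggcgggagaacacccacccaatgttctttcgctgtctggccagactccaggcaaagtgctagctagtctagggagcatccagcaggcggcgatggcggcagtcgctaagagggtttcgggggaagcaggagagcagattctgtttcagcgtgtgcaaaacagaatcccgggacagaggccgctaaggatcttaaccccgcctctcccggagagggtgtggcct
Gstk1: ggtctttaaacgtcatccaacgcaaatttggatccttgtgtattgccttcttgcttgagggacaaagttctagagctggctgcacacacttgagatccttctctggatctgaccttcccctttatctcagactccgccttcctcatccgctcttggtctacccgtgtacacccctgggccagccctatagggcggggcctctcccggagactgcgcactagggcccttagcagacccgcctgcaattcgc
Gsto1: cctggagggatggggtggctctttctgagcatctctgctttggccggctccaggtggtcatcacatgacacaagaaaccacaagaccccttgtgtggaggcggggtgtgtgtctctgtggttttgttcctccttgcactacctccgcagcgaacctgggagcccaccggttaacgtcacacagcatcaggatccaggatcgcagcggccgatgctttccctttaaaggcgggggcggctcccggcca
Both strands of the 250 bases before each start were searched for the core of the antioxidant response element, TGACNNNGC, and for the AP-1 element, TGANTCA, motifs that do not overlap in the matches found. RefSeq windows matched 9 members, with 12 start sites. The antioxidant response core was present for Gstm5, 42 bases before the RefSeq start, for Mgst1 at 56 bases and for the inner of 2 Gstm7 starts at 129 bases. Of all 32851 windows in the table, 10.2% held it. The AP-1 element was present for Gstm5, at 176 bases, and for Gstp1, at 74 bases, against 6.75% of all windows. The windows printed for Gstm7, Gstm1, Gstk1 and Gsto1 hold neither. A match describes letters in a window and does not show that a factor binds there.

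Per exonic length, the highest member was Gstm5 in ROS+, at 184 ± 20.7 CPM per kb, and Gstm1 in ROS++ and ROS+++, at 389 ± 74.9 and 478 ± 131 CPM per kb. Gstm1 ranked 3 in ROS+, at 82.4 ± 11.8 CPM per kb, behind Gstm5 and Mgst3 (89.2 ± 11.3). The lowest member was Mgst1 in ROS+, at 3.47 ± 2.35 CPM per kb, and Gsto1 in ROS++ and ROS+++, at 17.1 ± 5.71 and 4.20 ± 1.61 CPM per kb. Of the members' summed level per length, Gstm1 took 12.1 to 18.3% in ROS+ libraries, 28.6 to 39.6% in ROS++ and 37.2 to 45.8% in ROS+++. Gstm5 took 28.2 to 36.9%, 30.2 to 32.5% and 16.3 to 26.9% in the same order, and Gsto1 4.22 to 7.38%, 0.737 to 2.16% and 0.194 to 0.545%. The summed CPM of all 10 was 723 to 775 across ROS+ libraries, 1297 to 1747 across ROS++ and 1186 to 1948 across ROS+++. The lowest library of the ROS++ and ROS+++ classes therefore lay above the highest ROS+ library, while ROS+++ and ROS++ overlapped.

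**Figure D1:**
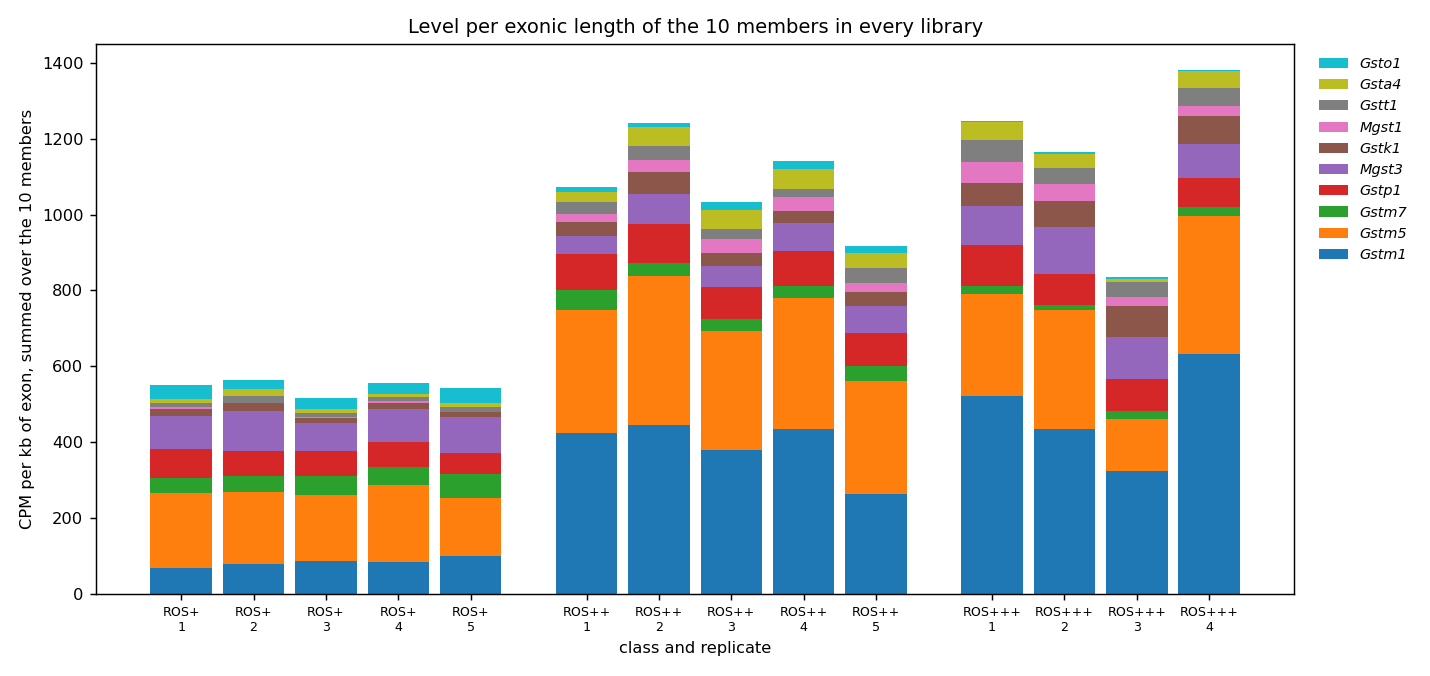
Stacked level of the 10 members in each of the 14 libraries, in CPM per kb of exon, with 1 bar per library and the replicate number under its class. The bars reach 515 to 563 for ROS+, 918 to 1241 for ROS++ and 834 to 1381 for ROS+++, and the Gstm1 segment at the base widens in ROS++ and ROS+++.

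Changes between classes are differences in mean log2(CPM + 1), tested with limma over the 15102 genes that reached 1 CPM in at least 4 libraries, and a change is called where the Benjamini-Hochberg adjusted p over all those genes is under 0.05. In ROS++ minus ROS+, 7 members were higher and 2 lower, where 16.4% of all tested genes were higher and 13.2% lower. In ROS+++ minus ROS+, 6 members were higher and 2 lower, where 19.2% of all genes were higher and 40.0% lower. In ROS+++ minus ROS++, 3 were higher and 2 lower, against 9.89% and 29.2% of all genes. The F-test over the 3 classes called all 10 members, against 61.5% of all tested genes. The libraries of the compared classes did not overlap for 8 members in ROS++ against ROS+ (23.0% of all genes), for 6 in ROS+++ against ROS+ (50.0%) and for 4 in ROS+++ against ROS++ (27.0%). The members' median change was 1.06 for ROS++ minus ROS+, 0.83 for ROS+++ minus ROS+ and 0.06 for ROS+++ minus ROS++, and the medians over all tested genes were -0.03, -0.44 and -0.34. The first and second comparisons share the ROS+ libraries, and the other pairs share ROS++ or ROS+++ libraries, so they are not independent. Leaving out 1 library at a time gave 0 to 2 members lower in ROS++ minus ROS+, with 0 without ROS+ replicate 1, ROS+ replicate 5 or ROS++ replicate 1, and 1 without ROS+ replicate 2, ROS+ replicate 4, ROS++ replicate 2 or ROS++ replicate 3. The number higher in ROS+++ minus ROS+ was 4 without ROS+++ replicate 1, 5 without ROS+++ replicate 4 or ROS+ replicate 5 and 7 without ROS+++ replicate 3, and 6 without any other library, with 2 lower each time. Leave-one-out fits gave 2 or 3 members higher and 2 or 3 lower in ROS+++ minus ROS++.

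**Figure D2:**
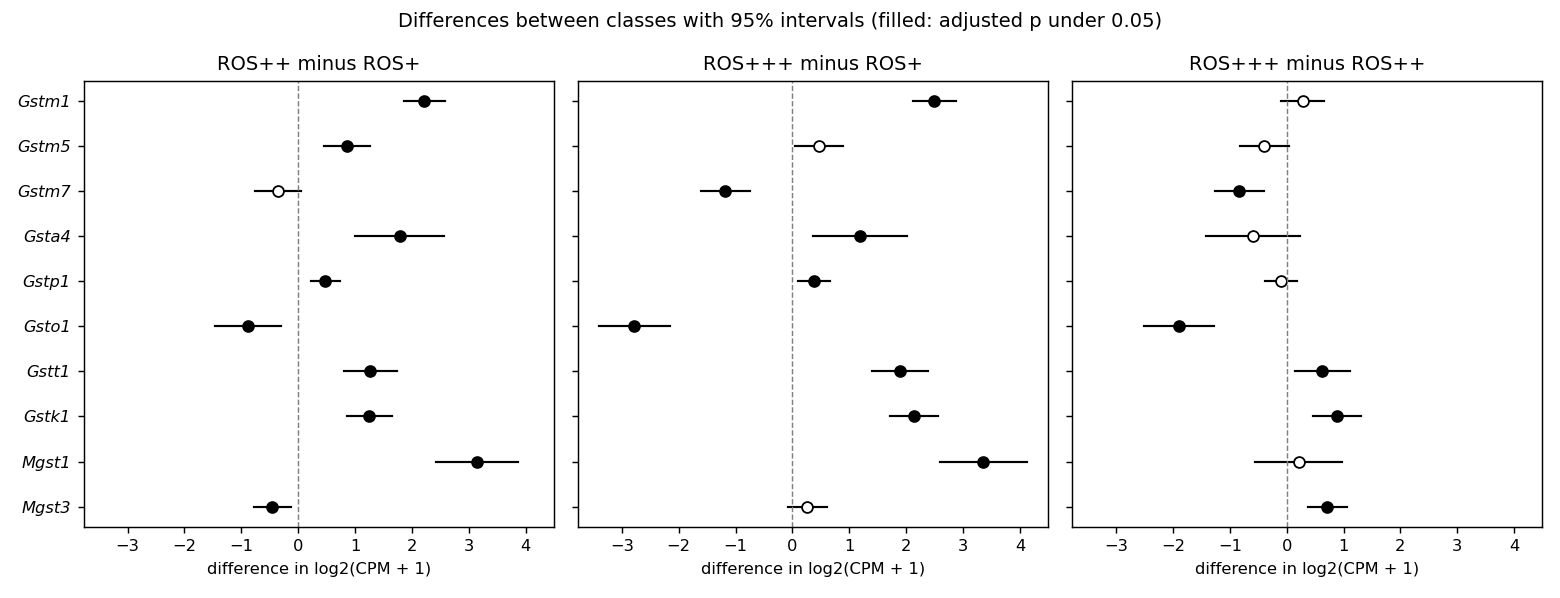
Difference of each member in mean log2(CPM + 1) between classes, as points with 95% intervals, in 1 panel for each of the 3 pairs of classes, with filled points where the adjusted p is under 0.05. Gstm1, Gstt1, Gstk1 and Mgst1 lie right of 0 in the first 2 panels, from 1.25 for Gstk1 to 3.35 for Mgst1, and Gsto1 lies left of 0 in all 3. The open points of Gstm5 and Gstp1 in the last panel lie left of 0. With relative log expression scaling, which is not drawn, these 2 differences were above 0.

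Gstm1, the mu transferase that conjugates a broad range of electrophiles, was several times higher in ROS++ and ROS+++ than in ROS+. It was present at 98.2, 115, 126, 122 and 146 CPM in the ROS+ libraries, 625, 654, 559, 639 and 386 CPM in the ROS++ libraries and 766, 639, 478 and 932 CPM in the ROS+++ libraries. Every ROS++ and ROS+++ library lay above all ROS+ libraries, and the ROS+++ and ROS++ values overlapped. The means were 573 ± 110.3 CPM in ROS++ and 121 ± 17.3 CPM in ROS+ (SD, n = 5 each), a log2 change of 2.22 ± 0.17 (SE, limma adjusted p = 2.64e-08). The ROS+++ mean of 704 ± 192 CPM (SD, n = 4) differed from the ROS+ mean by 2.50 ± 0.18 (limma adjusted p = 2.71e-09). ROS+++ minus ROS++ was 0.28 ± 0.18, with a 95% interval of -0.10 to 0.66, and did not pass (limma adjusted p = 0.236). It passed with relative log expression scaling, at 0.70 (limma adjusted p = 0.00411), and with upper-quartile scaling, at 0.56 (limma adjusted p = 0.0223). Without ROS+++ replicate 3 it was 0.45 (limma adjusted p = 0.054). Of the 50-base stretches of Gstm1 transcripts, 18.9% occur in other genes, most often in Gstm2-ps1 and Gstm3, and how such reads were counted is not given in the sources used here.

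Gstm5, a mu transferase known from brain and testis, was highest in ROS++. Its values were 253, 243, 223, 261 and 195 CPM in the ROS+ libraries, 414, 503, 399, 443 and 381 CPM in the ROS++ libraries and 344, 401, 173 and 464 CPM in the ROS+++ libraries. No ROS++ library overlapped with ROS+, whereas ROS+++ replicate 3 lay below all ROS+ libraries and the other ROS+++ libraries above them. Gstm5 rose in ROS++, with 428 ± 47.8 CPM against 235 ± 26.4 CPM for ROS+, by 0.86 ± 0.19 (limma adjusted p = 0.00218). ROS+++, with a mean of 346 ± 125 CPM, minus ROS+ was 0.47 ± 0.20, with a 95% interval of 0.05 to 0.90, and missed the threshold (limma adjusted p = 0.0533). Without ROS+++ replicate 3 that change was 0.77 and passed (limma adjusted p = 9.42e-05). It also passed at 0.91 and 0.77 with the other scalings and at 0.52 with library number as a covariate. ROS+++ minus ROS++ was -0.39 ± 0.20, with a 95% interval of -0.82 to 0.03 (limma adjusted p = 0.137), and turned to 0.03 with relative log expression scaling. That difference was -0.09 without ROS+++ replicate 3 (limma adjusted p = 0.625), and -0.56 without ROS+++ replicate 4, where it passed (limma adjusted p = 0.037). The exons of Gstm5 overlap those of 4933431E20Rik, and the libraries keep no strand, so reads there cannot be told apart. The row of 4933431E20Rik differed by 0.05 ± 0.33 in ROS++ minus ROS+, which did not pass (limma adjusted p = 0.937), and by -1.16 ± 0.35 in ROS+++ minus ROS+ (limma adjusted p = 0.00864).

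Gstm7, a mu transferase next to Gstm5 in the cluster, went the other way and was lowest in ROS+++. It was found at 63.4, 68.9, 81.5, 73.4 and 100.07 CPM in the ROS+ libraries, 85.4, 54.5, 51.6, 48.9 and 64.7 CPM in the ROS++ libraries and 35.8, 24.1, 34.6 and 40.5 CPM in the ROS+++ libraries. All ROS+++ libraries lay below all libraries of the other classes, and ROS++ overlapped with ROS+ through ROS++ replicates 1 and 5. Gstm7 fell in ROS+++, with 33.7 ± 6.91 CPM against 77.5 ± 14.3 CPM for ROS+, with a change of -1.18 ± 0.20 (limma adjusted p = 8.42e-05), or -0.75 with relative log expression scaling. It fell against ROS++ (61.0 ± 14.9 CPM) as well, with a change of -0.83 ± 0.20 (limma adjusted p = 0.0036), a call that relative log expression scaling ended, at -0.42 (limma adjusted p = 0.131). ROS++ minus ROS+ was -0.35 ± 0.19, with a 95% interval of -0.76 to 0.05, and did not pass (limma adjusted p = 0.187). Within the cluster the ratio of Gstm1 to Gstm7, both per kb, was 1.59 to 1.81 in ROS+ libraries, 6.49 to 14.2 in ROS++ and 15.01 to 28.8 in ROS+++. The ratio of Gstm1 to Gstm5 per kb was 0.337 to 0.648 across ROS+ libraries, 0.880 to 1.31 across ROS++ and 1.38 to 2.39 across ROS+++. Neither ratio overlapped between any 2 classes, and neither depends on the scaling between libraries.

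**Figure D3:**
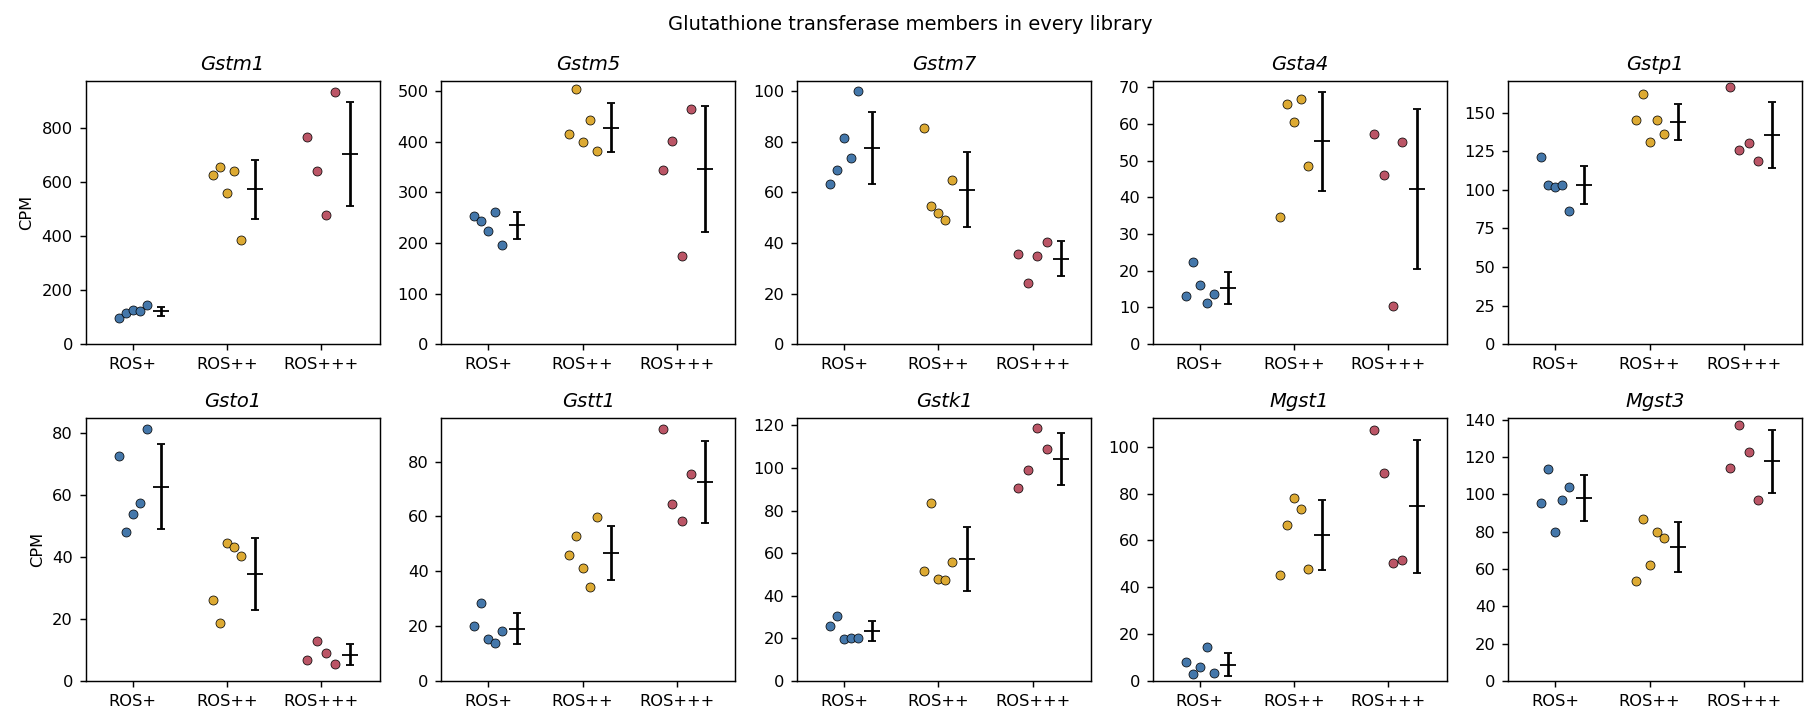
Level of each member in CPM in every library (points, spread sideways by replicate), with the mean and SD of each class beside them, in 10 panels with separate scales that start at 0. Gstm1, Gstt1, Gstk1 and Mgst1 have all ROS++ and ROS+++ points above the ROS+ points, Gsto1 has all ROS+++ points below the rest, and ROS+++ replicate 3 is the low point of Gstm5 at 173 CPM and of Gsta4 at 10.3 CPM.

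Gsta4, the alpha transferase with high activity towards 4-hydroxynonenal, a product of lipid peroxidation, was higher in ROS++ and in 3 of the 4 ROS+++ libraries. Its levels were 13.0, 22.4, 16.2, 11.2 and 13.7 CPM in the ROS+ libraries, 34.7, 65.5, 60.6, 66.7 and 48.6 CPM in the ROS++ libraries and 57.3, 46.1, 10.3 and 55.2 CPM in the ROS+++ libraries. The low ROS+++ library is replicate 3, below every ROS+ library, and no ROS++ library overlapped with ROS+. Gsta4 rose in ROS++, with 55.2 ± 13.5 CPM against 15.3 ± 4.34 CPM for ROS+, by 1.78 ± 0.37 (limma adjusted p = 0.00129). In ROS+++ it averaged 42.2 ± 21.8 CPM and rose over ROS+ by 1.19 ± 0.39 (limma adjusted p = 0.0145), or by 1.75 without replicate 3 (limma adjusted p = 2.85e-05). This call was lost without ROS+++ replicate 1, at 0.96 (limma adjusted p = 0.0572), and without ROS+++ replicate 4, at 0.98 (limma adjusted p = 0.056). The ROS+++ mean differed from that of ROS++ by -0.59 ± 0.39, with a 95% interval of -1.42 to 0.23 (limma adjusted p = 0.248), and by -0.03 without ROS+++ replicate 3 (limma adjusted p = 0.942).

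Gstp1, the pi transferase, which also binds and restrains the kinase JNK, changed least among the members that were higher in ROS++. It was measured at 121, 103, 102, 103 and 86.3 CPM in the ROS+ libraries, 145, 162, 131, 145 and 136 CPM in the ROS++ libraries and 167, 126, 130.4 and 119 CPM in the ROS+++ libraries. All ROS++ libraries lay above the ROS+ libraries, and ROS+++ replicate 4 fell just inside the ROS+ range. Gstp1 rose in ROS++, with 144 ± 11.8 CPM against 103 ± 12.4 CPM for ROS+, by 0.48 ± 0.12 (limma adjusted p = 0.00706). In ROS+++, at 135 ± 21.3 CPM, it rose over ROS+ by 0.38 ± 0.13 (limma adjusted p = 0.0187), by 0.82 with relative log expression scaling and by 0.68 with upper-quartile scaling. The call was lost without ROS+ replicate 5, at 0.32 (limma adjusted p = 0.0532), and without ROS+++ replicate 1, at 0.28 (limma adjusted p = 0.0805). For ROS+++ minus ROS++ the difference was -0.10 ± 0.13, with a 95% interval of -0.37 to 0.18 (limma adjusted p = 0.597), and it turned positive, at 0.32 and 0.18, with relative log expression and upper-quartile scaling. Of the 50-base stretches of Gstp1, 33.7% occur in other genes, all of them in Gstp2 and many also in the pseudogene Gstp-ps, so its reads are uncertain to that extent. The Gstp-ps row, at a change of 0.42 ± 0.30 in ROS++ minus ROS+, did not pass (limma adjusted p = 0.311).

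Gsto1, the omega transferase, which uses a cysteine in its active site, removes glutathione from proteins and reduces dehydroascorbate, fell with each class. Its values were 72.6, 48.1, 53.8, 57.4 and 81.1 CPM in the ROS+ libraries, 26.2, 18.5, 44.6, 43.2 and 40.2 CPM in the ROS++ libraries and 6.73, 12.9, 8.95 and 5.43 CPM in the ROS+++ libraries. The classes did not overlap with one another in any pair. Gsto1 fell in ROS+++, with 8.49 ± 3.25 CPM against 62.6 ± 13.7 CPM for ROS+, with a change of -2.78 ± 0.29 (limma adjusted p = 3.14e-07). It also fell against ROS++, at 34.5 ± 11.6 CPM, with a change of -1.89 ± 0.29 (limma adjusted p = 6.98e-05). ROS++ minus ROS+ was -0.89 ± 0.28 (limma adjusted p = 0.0217). That last call was lost without ROS+ replicate 1 (-0.83), ROS+ replicate 5 (-0.79), ROS++ replicate 1 (-0.81) or ROS++ replicate 2 (-0.69), with limma adjusted p-values of 0.0528 to 0.0662. The summed level of the 9 neuroblast markers was lowest in ROS+++ too, at 29.1 to 214 CPM. It was 981 to 2458 CPM in ROS++ and 12090 to 17392 CPM in ROS+. Of these markers 9 of 9 were lower in ROS+++ than in ROS+, where 40.0% of all tested genes were lower. In ROS++ against ROS+ 8 of 9 were already lower (13.2% of all tested genes), and Gstm7 did not pass. None of the 9 markers was at 0 reads in every library of a class, and 3 were under 1 CPM in the ROS+++ mean. Oligodendrocyte markers were also lowest in ROS+++, with 8 of 8 lower than in ROS++ (29.2% of all genes). Their sums were 1516 to 4623 CPM (ROS+), 1712 to 9065 CPM (ROS++) and 338 to 554 CPM (ROS+++). The part of either cell type in the fall of Gsto1 and Gstm7 was not tested.

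Gstt1, the theta transferase that acts on small halogenated compounds, rose with each class. It stood at 20.03, 28.3, 15.2, 13.8 and 18.1 CPM in the ROS+ libraries, 45.9, 52.7, 41.0, 34.1 and 59.7 CPM in the ROS++ libraries and 92.1, 64.4, 58.2 and 75.5 CPM in the ROS+++ libraries. Every ROS++ and ROS+++ library lay above the ROS+ libraries, and only ROS++ replicate 5, at 59.7 CPM, reached into the ROS+++ range, whose lowest value was 58.2 CPM. Gstt1 rose in ROS++, with 46.7 ± 9.97 CPM against 19.1 ± 5.72 CPM for ROS+, by 1.27 ± 0.22 (limma adjusted p = 0.000274), and in ROS+++, at 72.6 ± 14.8 CPM, by 1.90 ± 0.23 (limma adjusted p = 1.95e-06). Over ROS++ the ROS+++ change was 0.63 ± 0.23 (limma adjusted p = 0.0402), and 1.04 with relative log expression scaling. This call was lost without ROS++ replicate 1 (0.63), 3 (0.59) or 4 (0.53), and without ROS+++ replicate 1 (0.51), 2 (0.68) or 4 (0.60), with limma adjusted p-values of 0.0537 to 0.123.

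Gstk1, the kappa transferase, related in fold to bacterial disulfide isomerases and placed in mitochondria and peroxisomes, was the one risen member whose 3 classes did not overlap in any pair. Its levels were 25.9, 30.4, 19.8, 20.04 and 20.2 CPM in the ROS+ libraries, 51.6, 83.4, 47.7, 47.5 and 56.0 CPM in the ROS++ libraries and 90.5, 99.2, 119 and 109 CPM in the ROS+++ libraries. The values climb from class to class, and ROS++ replicate 2 stood well above the other ROS++ libraries. Gstk1 rose in ROS+++, with 104 ± 12.2 CPM against 57.2 ± 15.1 CPM for ROS++, by 0.88 ± 0.20 (limma adjusted p = 0.00193). Against ROS+, at 23.3 ± 4.75 CPM, the ROS+++ change was 2.13 ± 0.20 (limma adjusted p = 7.01e-08) and the ROS++ change 1.25 ± 0.19 (limma adjusted p = 6.56e-05). Gstk1 was highest in ROS+++ replicate 3, the library in which Gstm1, Gstm5, Gsta4, Gstt1 and Mgst1 were the lowest of their class. The same library had the highest mural sum, at 55824 CPM against 48317 to 49267 CPM in the other ROS+++ libraries. ROS+++ replicate 1, with the next mural sum of 49267 CPM, had the lowest Gstk1 of its class, at 90.5 CPM. In ROS++ the highest Gstk1, at 83.4 CPM in replicate 2, came with a mural sum of 9176 CPM. The highest ROS++ mural sum, at 22097 CPM in replicate 1, came with Gstk1 at 51.6 CPM. Mural markers moved with the classes as Gstk1 did, with 12 of 12 higher in ROS+++ than in ROS+ (19.2% of all tested genes). In ROS+++ against ROS++ 8 of 12 were higher (9.89% of all tested genes). None of the 12 mural markers was at 0 reads in every library of a class, and 2 were under 1 CPM in the ROS+ mean. Their part in the level of Gstk1 and Gstt1 was not tested.

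The membrane-bound enzymes split. Mgst1, found in the endoplasmic reticulum and the outer mitochondrial membrane, was low in ROS+ and higher in both other classes, at 8.22, 2.88, 5.98, 14.5 and 3.33 CPM in the ROS+ libraries, 45.3, 66.7, 78.1, 73.5 and 47.9 CPM in the ROS++ libraries and 107, 88.9, 50.3 and 51.6 CPM in the ROS+++ libraries. Its lowest ROS++ library, at 45.3 CPM, lay above its highest ROS+ library, at 14.5 CPM, and ROS+++ overlapped with ROS++. Mgst1 rose in ROS++, with 62.3 ± 14.9 CPM against 6.99 ± 4.74 CPM for ROS+, by 3.14 ± 0.34 (limma adjusted p = 1.75e-06), and in ROS+++, at 74.5 ± 28.2 CPM, by 3.35 ± 0.36 (limma adjusted p = 4.44e-07), the widest changes among the 10 members in both comparisons. From ROS++ the ROS+++ libraries differed by 0.21 ± 0.36, with a 95% interval of -0.56 to 0.98 (limma adjusted p = 0.675), or by 0.37 without ROS+++ replicate 3 (limma adjusted p = 0.502). Markers of astrocytes and macrophages also differed between the classes. The 7 astrocyte markers summed to 592 to 888 CPM (ROS+), 1573 to 2198 CPM (ROS++) and 648 to 2332 CPM (ROS+++). Of these, 6 of 7 were higher in both other classes than in ROS+, beside 16.4% (ROS++) and 19.2% (ROS+++) of all tested genes. The remaining marker, S100b, did not pass in ROS++ minus ROS+ (limma adjusted p = 0.476). It was lower in ROS+++ than in ROS+, with a change of -3.83 ± 0.29 (limma adjusted p = 8.64e-09). For 11 microglia and macrophage markers the sums were 3.57 to 16.7 CPM (ROS+), 939.6 to 2513 CPM (ROS++) and 755 to 3159 CPM (ROS+++). Here 11 of 11 were higher in both other classes than in ROS+, beside the same 16.4% and 19.2% of all tested genes. None of the 11 was at 0 reads in every library of a class, and 8 were under 1 CPM in the ROS+ mean. The part of these cell types in the level of Mgst1 was not tested.

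Mgst3, which reduces lipid hydroperoxides and can make leukotriene C4 from leukotriene A4, was lowest in ROS++. It was detected at 95.3, 114, 79.9, 96.8 and 104 CPM in the ROS+ libraries, 53.7, 86.8, 62.2, 80.1 and 76.5 CPM in the ROS++ libraries and 114, 137, 123 and 97.1 CPM in the ROS+++ libraries. All ROS+++ libraries lay above all ROS++ libraries, and ROS+ overlapped with both. Mgst3 rose in ROS+++, with 118 ± 16.7 CPM against 71.8 ± 13.6 CPM for ROS++, by 0.71 ± 0.16 (limma adjusted p = 0.00207), or 1.13 with relative log expression scaling. It fell in ROS++ against ROS+ (97.9 ± 12.4 CPM), with a change of -0.45 ± 0.15 (limma adjusted p = 0.0335). The fall was lost without ROS+ replicate 1 (-0.46), 2 (-0.40), 4 (-0.45) or 5 (-0.43) and without ROS++ replicate 1 (-0.35) or 3 (-0.41), with limma adjusted p-values of 0.0537 to 0.0906. ROS+++ minus ROS+ was 0.26 ± 0.16, with a 95% interval of -0.08 to 0.60, and did not pass (limma adjusted p = 0.177), but passed at 0.70 with relative log expression and 0.56 with upper-quartile scaling. The ratio of Mgst1 to Mgst3 per kb was 0.0138 to 0.0819 in ROS+ libraries, 0.341 to 0.685 in ROS++ and 0.224 to 0.512 in ROS+++, so that ROS+++ and ROS++ overlapped and ROS+ lay below both.

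In the order of their class means, 4 members ran ROS+++ over ROS++ over ROS+ (Gstm1, Gstt1, Gstk1 and Mgst1), although the ROS+++ and ROS++ libraries of Gstm1 and Mgst1 overlapped and their difference was not called with library totals, while that of Gstm1 passed with both other scalings. Another 3 had ROS++ highest and ROS+ lowest (Gstm5, Gsta4 and Gstp1), none of them with a called difference between ROS+++ and ROS++ over all 14 libraries. Gstm7 and Gsto1 ran in the reverse order, ROS+ over ROS++ over ROS+++, and Mgst3 had its lowest mean in ROS++. As a description of likeness, the distance between 2 profiles was taken as the root mean square difference in log2(CPM + 1), each gene centred over the 14 libraries, which share their depth and the differences between classes. The smallest distances were between Gstt1 and Gstk1, at 0.288, then Gstm5 and Gstp1 at 0.367 and Gstp1 and Mgst3 at 0.485. The distance is not scaled to the size of a gene's changes, so genes that change little lie close whatever their direction. Gstp1 and Mgst3 went opposite ways in ROS++ minus ROS+, at 0.48 and -0.45. The largest distances were between Gsto1 and Mgst1, at 2.60, and between Gstm1 and Gsto1, at 2.21. Gstm5 lay farther from its cluster neighbours, at 0.831 from Gstm7 and 0.878 from Gstm1, than from Gstp1 on chromosome 19 or from Gsta4 on chromosome 9, at 0.565.

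Among the other genes of the table, the profile nearest to Gstk1 and to Gstt1 was that of Oat, which encodes ornithine aminotransferase of mitochondria, at 0.203 for Gstk1 and 0.278 for Gstt1. Tram1, a component of the protein translocation channel of the endoplasmic reticulum, was also among the 3 nearest of both, at 0.280 and 0.304. Gstm1 lay nearest to Gm2830 (0.286), the transcription factor gene Zic5 (0.316) and Cst3 (0.319), which encodes the secreted protease inhibitor cystatin C. Cst3 was also among the nearest of Mgst1, at 0.517, after Uba7 at 0.507. Gstm5 lay nearest to the mitochondrially encoded mt-Nd5 (0.204), then to Nat8f1 (0.224) and mt-Nd2 (0.225). Gsta4 had Lix1 (0.338), Mir6390 (0.413) and Ephx2 (0.429), the gene of soluble epoxide hydrolase. Gstp1, whose changes between classes were small, had the smallest distance of all members, to Hsp90b1, a chaperone of the endoplasmic reticulum, at 0.101. The nearest genes were Rpp14 (0.183) for Gstm7, Ankrd13b (0.350) for Gsto1 and Btrc (0.207) for Mgst3. Some of these genes were low in a class, where the added 1 CPM sets part of the profile. Gm2830, Mir6390 and Uba7 averaged 1.26, 0.25 and 1.08 CPM in ROS+, and Ankrd13b averaged 0.63 CPM in ROS+++.

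The list of other genes of the transferase superfamily held 21 genes, of which 14 were listed and tested. In ROS++ minus ROS+, 7 of the 14 were higher and none lower, with a median change of 1.41. In ROS+++ minus ROS+, 8 were higher and 2 lower (median 1.66), and in ROS+++ minus ROS++, 3 were higher and 2 lower (median -0.01). Of all tested genes, 16.4% were higher and 13.2% lower in the first comparison (median -0.03), 19.2% and 40.0% in the second (median -0.44) and 9.89% and 29.2% in the last (median -0.34). Gstt2, a theta enzyme in the same cluster as Gstt1, was found at 2.33, 5.09, 1.74, 1.92 and 0 CPM in the ROS+ libraries, 30.3, 32.1, 33.0, 48.7 and 18.2 CPM in the ROS++ libraries and 168, 123, 111 and 179.9 CPM in the ROS+++ libraries. All 3 classes were apart, in the same order as for Gstt1. Gstt2 rose by 5.70 ± 0.40 in ROS+++ against ROS+ (limma adjusted p = 1.99e-09) and by 2.17 ± 0.40 against ROS++ (limma adjusted p = 0.00037). Gstm2, between Gstm7 and Gstm1 in the mu cluster, was found at 2.37, 0, 0, 0.0853 and 0.0938 CPM in the ROS+ libraries, 7.49, 10.1, 6.91, 15.4 and 6.77 CPM in the ROS++ libraries and 26.7, 16.9, 23.3 and 31.9 CPM in the ROS+++ libraries. It was at 0 in 2 ROS+ libraries, and its classes did not overlap. The ROS+++ change was 4.25 ± 0.41 against ROS+ (limma adjusted p = 1.02e-07) and 1.34 ± 0.41 against ROS++ (limma adjusted p = 0.0147).

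Hpgds, the sigma transferase that makes prostaglandin D2, averaged 1.48 ± 0.972 CPM (ROS+), 40.3 ± 12.8 CPM (ROS++) and 32.2 ± 16.2 CPM (ROS+++), and rose in ROS++ against ROS+ by 4.09 ± 0.38 (limma adjusted p = 3.12e-07). Ptges, the microsomal prostaglandin E synthase related to Mgst1, averaged 3.39 ± 1.66 CPM (ROS+), 22.9 ± 7.49 CPM (ROS++) and 84.2 ± 21.3 CPM (ROS+++), a change of 4.33 ± 0.33 in ROS+++ against ROS+ (limma adjusted p = 5.18e-09). Alox5ap, which presents arachidonic acid to the lipoxygenase of leukotriene synthesis, rose by 4.02 ± 0.39 in the same comparison (limma adjusted p = 1.27e-07). The 2 genes that fell in ROS+++ were Gdap1 and Gstz1, the second of which is named here after its values were seen. Gdap1, a mitochondrial outer membrane protein that in humans is mutated in Charcot-Marie-Tooth neuropathy, was found at 85.8, 97.4, 79.2, 65.9 and 91.1 CPM in the ROS+ libraries, 26.9, 38.3, 26.8, 36.9 and 82.1 CPM in the ROS++ libraries and 12.0, 0.245, 0.190 and 8.11 CPM in the ROS+++ libraries. All ROS+++ libraries lay below the rest, and ROS++ overlapped with ROS+ through ROS++ replicate 5. It fell in ROS+++ by 4.53 ± 0.60 against ROS+ (limma adjusted p = 6.13e-06). Gstz1, the zeta transferase that isomerises maleylacetoacetate in tyrosine breakdown, averaged 97.6 ± 7.80 CPM (ROS+), 92.8 ± 10.5 CPM (ROS++) and 66.1 ± 8.67 CPM (ROS+++), a change of -0.56 ± 0.14 in ROS+++ against ROS+ (limma adjusted p = 0.00194).

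**Figure D4:**
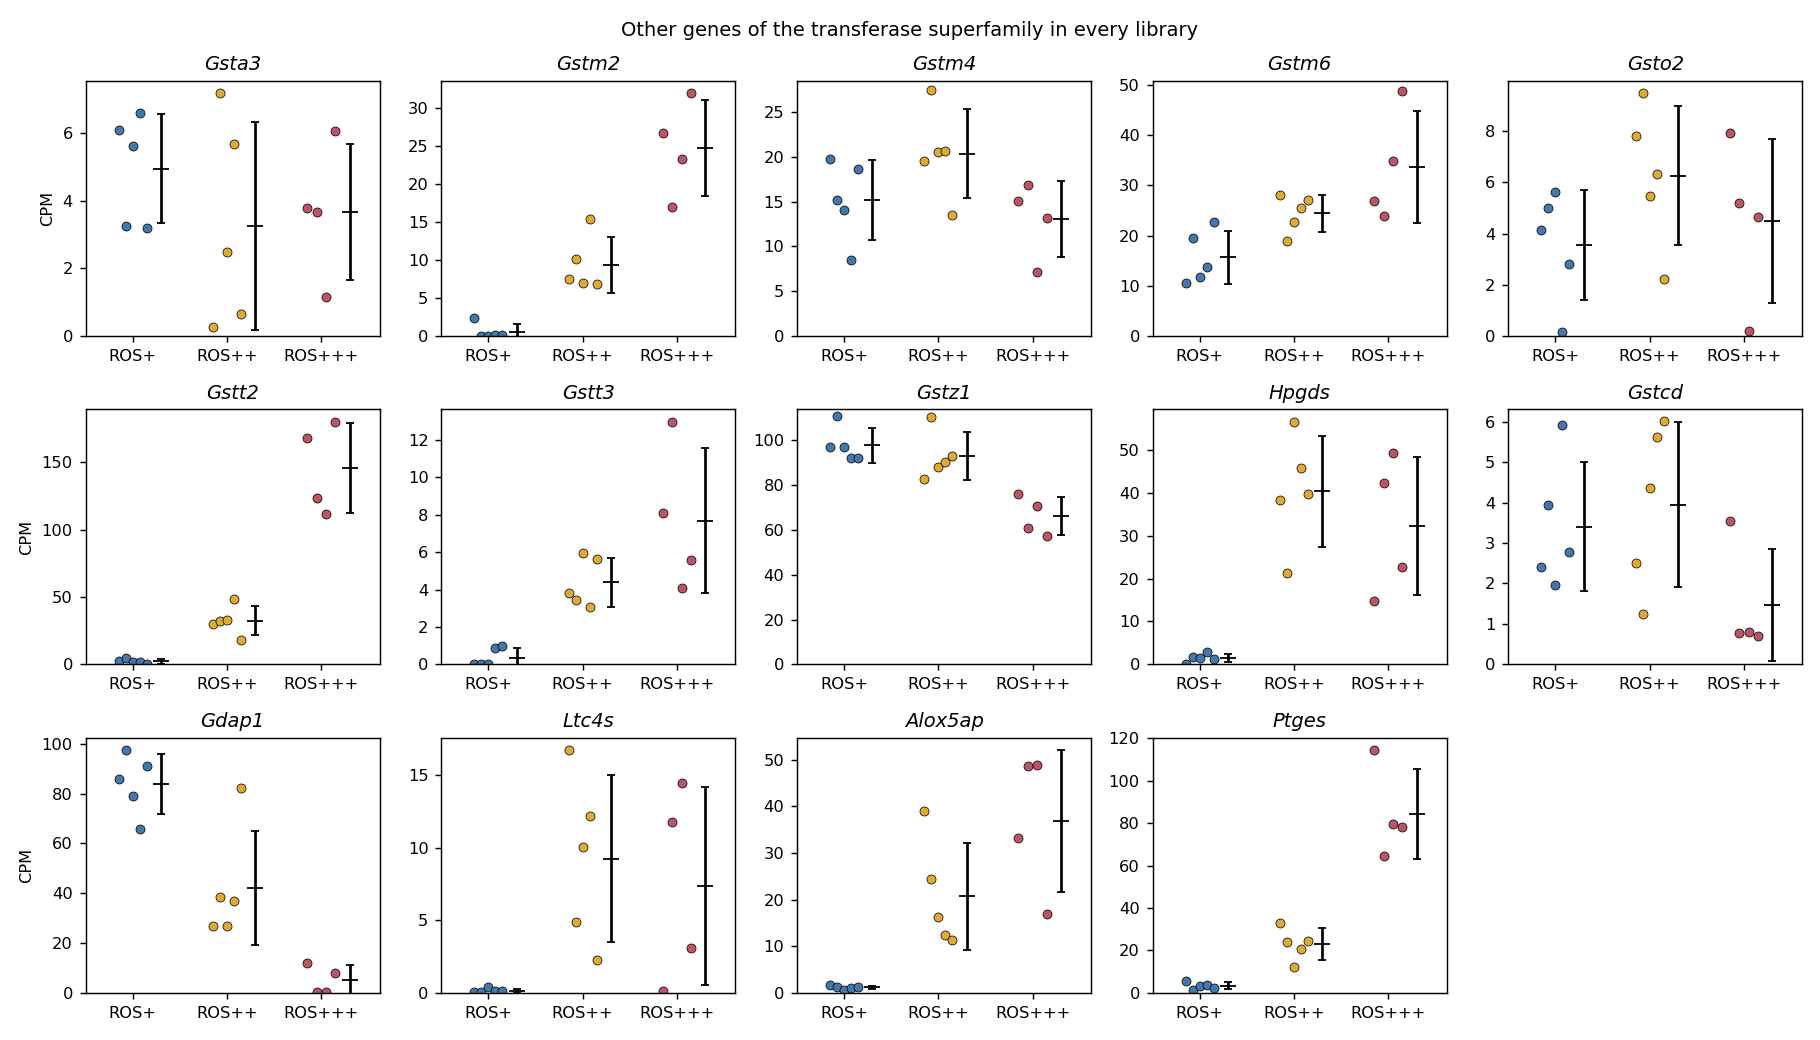
Level in CPM of the 14 other listed genes of the transferase superfamily in every library (points), with the mean and SD of each class beside them and scales that start at 0. Gstt2 and Gstm2 climb from class to class, with ROS+++ means of 146 and 24.7 CPM, while Gdap1 is at 12.0 CPM or less in every ROS+++ library.

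Of the 8 genes of glutathione synthesis and cystine supply, 5 were higher and none lower in ROS++ minus ROS+, with a median of 0.89, and 3 were higher and 2 lower in ROS+++ minus ROS+, with a median of 0.72. In ROS+++ minus ROS++, none was higher and 5 were lower, with a median of -0.89, where 9.89% of all tested genes were higher and 29.2% lower (median -0.34). The shares over all genes were 16.4% higher and 13.2% lower for ROS++ minus ROS+ and 19.2% higher and 40.0% lower for ROS+++ minus ROS+. Slc7a11, the cystine importer of the xc- exchanger, averaged 4.31 ± 5.11 CPM (ROS+), 35.9 ± 23.4 CPM (ROS++) and 46.0 ± 29.5 CPM (ROS+++), and rose in ROS+++ against ROS+ by 3.43 ± 0.64 (limma adjusted p = 0.000199). Cbs, which makes cystathionine from homocysteine on the way to cysteine, averaged 11.8 ± 4.99 CPM (ROS+), 92.5 ± 26.2 CPM (ROS++) and 44.7 ± 21.8 CPM (ROS+++), and rose in ROS++ against ROS+ by 2.91 ± 0.35 (limma adjusted p = 5.91e-06). Gclc, the catalytic subunit of the first enzyme of synthesis, rose in ROS++ against ROS+ by 1.11 ± 0.27 (limma adjusted p = 0.00404). Gclm, its modifier subunit, did not pass there, at 0.39 ± 0.29 (limma adjusted p = 0.344). In ROS+++ minus ROS++ both were lower. The change was -0.74 ± 0.28 for Gclc (limma adjusted p = 0.0463) and -1.36 ± 0.30 for Gclm (limma adjusted p = 0.00172). Slc1a1, the neuronal glutamate and cysteine transporter, averaged 165 ± 35.1 CPM (ROS+), 134 ± 21.3 CPM (ROS++) and 8.36 ± 6.69 CPM (ROS+++), a change of -4.65 ± 0.55 in ROS+++ against ROS+ (limma adjusted p = 3.95e-06).

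Of the 9 tested of 12 genes of glutathione breakdown, 4 were higher and 2 lower in ROS++ minus ROS+, 2 higher and 3 lower in ROS+++ minus ROS+, and 2 higher and 3 lower in ROS+++ minus ROS++. The medians were 0.07, -0.43 and -0.71, beside -0.03, -0.44 and -0.34 over all tested genes. The list's counts and median in ROS+++ minus ROS+ were close to those of all genes, of which 19.2% were higher and 40.0% lower. Ggt1, the gamma-glutamyltransferase that splits extracellular glutathione, averaged 1.44 ± 2.16 CPM (ROS+), 65.4 ± 28.3 CPM (ROS++) and 287 ± 57.6 CPM (ROS+++), a change of 7.21 ± 0.43 in ROS+++ against ROS+ (limma adjusted p = 2.4e-10). Ggt5, which acts on glutathione conjugates such as leukotriene C4, averaged 0.517 ± 0.546 CPM (ROS+), 105 ± 40.1 CPM (ROS++) and 465 ± 34.8 CPM (ROS+++), a change of 8.33 ± 0.29 (limma adjusted p = 1.13e-12). Ggct, the intracellular gamma-glutamylcyclotransferase, fell in ROS+++ with a change of -2.60 ± 0.46 (limma adjusted p = 0.000101). Conjugate export and mercapturate formation, with 8 tested of 10, had 2 higher and none lower in ROS++ minus ROS+, 3 higher and 1 lower in ROS+++ minus ROS+, and 1 higher and 3 lower in ROS+++ minus ROS++, with medians of 0.42, -0.13 and -0.53. Beside both lists, 16.4% of all tested genes were higher and 13.2% lower in ROS++ minus ROS+. The shares were 19.2% and 40.0% in ROS+++ minus ROS+ and 9.89% and 29.2% in ROS+++ minus ROS++. Acy3, which removes the acetyl group from mercapturic acids, averaged 0.681 ± 0.640 CPM (ROS+), 11.7 ± 5.10 CPM (ROS++) and 51.1 ± 12.9 CPM (ROS+++), a change of 5.02 ± 0.40 in ROS+++ against ROS+ (limma adjusted p = 8.29e-09).

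Of the 5 genes of glutathione reduction and the glutaredoxins, none was higher in any comparison. The number lower was 1 in ROS++ minus ROS+, 2 in ROS+++ minus ROS+ and 3 in ROS+++ minus ROS++, with medians of -0.07, -0.48 and -0.76. Over all tested genes 13.2%, 40.0% and 29.2% were lower, with medians of -0.03, -0.44 and -0.34, so that the list stood near the background in ROS+++ minus ROS+. Glrx3, a glutaredoxin of iron-sulfur handling, averaged 128 ± 11.2 CPM (ROS+), 99.96 ± 7.11 CPM (ROS++) and 51.4 ± 4.51 CPM (ROS+++), and fell in ROS+++ against ROS+ with a change of -1.30 ± 0.13 (limma adjusted p = 1.06e-07). Gsr, the reductase that regenerates glutathione, changed by -0.88 ± 0.30 in ROS+++ minus ROS++ (limma adjusted p = 0.025). Among 5 other glutathione-dependent enzymes, 1 was higher and none lower in ROS++ minus ROS+, 1 higher and 1 lower in ROS+++ minus ROS+, and 2 lower in ROS+++ minus ROS++, with medians of 0.19, -0.02 and -0.08. In the same comparisons 16.4%, 19.2% and 9.89% of all tested genes were higher, and 13.2%, 40.0% and 29.2% lower. Adh5, which clears formaldehyde and S-nitrosoglutathione, averaged 408 ± 27.5 CPM (ROS+), 344 ± 30.1 CPM (ROS++) and 183 ± 36.1 CPM (ROS+++), a change of -1.17 ± 0.12 in ROS+++ against ROS+ (limma adjusted p = 2.84e-07).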

How the data were processed

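RNA was measured in 14 libraries. The authors deposited log2 CPM values for 15119 genes. All libraries share the lowest value, so whole reads could be recovered from every value within 0.001 reads; the lowest value corresponds to a prior of 1 read at the mean library size. STAR, edgeR and genome build mm10 are named in the submitters' processing notes. Versions and the counting step: not given in the sources used here. Per the labels' protocols, cDNA was primed with poly-dT and amplified over 12 cycles, with no molecular identifiers and no strand, so the floor of 3 reads (95% confidence) covers counting error only.

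Libraries were scaled to their totals over the listed genes. Differences in log2(CPM + 1) were tested with limma 3.58.1 (trend and robust, statmod 1.5.0, R 4.3.3), with 11 residual degrees of freedom, 1 fit over all 14 libraries and Benjamini-Hochberg adjustment over 15102 genes, after a filter of 1 CPM in 4 libraries removed 17. The test was checked on simulated data with as many raised as lowered genes and a fixed spread. That check does not cover the imbalance between higher and lower calls seen here or the choice of scaling. The 26 pairs of replicates differed beyond sampling noise (chi-square over its degrees of freedom 33.7 to 161). Replicate numbers follow sample order. Gene names and positions are from GENCODE M21, which may differ from the authors' annotation, and promoter windows are from RefSeq.

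Levels per kb divide CPM by exonic length. All members are named. Of each other list, at most the 4 genes with the widest called change per comparison are named, and of each member the 3 nearest profiles were found. Markers of radial glia, neuroblasts, astrocytes, mural cells, macrophages, endothelium, oligodendrocytes and leptomeningeal fibroblasts were summed. The members and all lists were chosen with earlier results of these data known.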

Additional observations from a re-analysis of the deposited data

Results flagged for a closer look

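Of 30 groups, 1 for each member and class, 1 held a library far from the others. Gstk1 in ROS++ replicate 2 stood at 83.4 CPM, against 47.5 to 56.0 CPM in the other ROS++ libraries. Its gap to the nearest library was 0.763 of the range of the class, above the limit for 5 libraries. Chance alone flags about 1 in 20 groups. The same library had the highest ROS++ values in 5 members, and the ROS+++ libraries remained above it for Gstk1, at 90.5 to 119 CPM.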

How the results depend on the processing

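Across 24 alternatives, 687 of the members' values kept their direction and side of the threshold, 21 lost a call, 9 gained one and 3 turned direction. The turned values, all in ROS+++ minus ROS++, were Gstm5 at 0.0252 and Gstp1 at 0.32 with relative log expression scaling, and Gstp1 at 0.18 with upper-quartile scaling. These scalings raised the median change of all genes by 0.40 and 0.27 in ROS+++ minus ROS+ and by 0.37 and 0.25 in ROS+++ minus ROS++. Of the calls, the part that was higher was then 50.6% and 43.9% in the first of these comparisons, against 32.5% with library totals, and 52.2% and 42.4% in the second, against 25.3%. With relative log expression scaling 1 member was lower in ROS+++ minus ROS++, against 2 with library totals, and the cause was not tested. Leaving out 1 library gave 0 to 2 members lower in ROS++ minus ROS+. The number of members higher in ROS+++ minus ROS+ ran from 4 to 8 over all alternatives. limma-voom on the recovered reads called 4688, 8639 and 5575 genes in the 3 comparisons, against 4476, 8947 and 5898. Depth limits Mgst1 in ROS+ and Gsto1 in ROS+++ most, with as few as 60 and 69 reads in a library. The labels give no replicate numbers, so the libraries were not paired by design. In an alternative chosen after seeing the data, 5 sets of consecutive library numbers, each with at most 1 library of a class, entered as a replicate block. The block called 4699, 9065 and 6134 genes and changed the call of no member, with 7, 6 and 3 members higher and 2 lower in each comparison. Deviations from the class means were correlated between libraries of different classes. The correlations were -0.02 to 0.23 within sets (median 0.08) and -0.15 to 0.16 between sets (median -0.009), so the ranges overlapped. Among libraries of other classes, 10 of 14 libraries correlated best with one of their own set, a hint from the data and not from the design.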

Other observations

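Markers of further cell types also differed between the classes. For the counts that follow, 19.2% of all tested genes were higher and 40.0% lower in ROS+++ than in ROS+. The shares were 16.4% and 13.2% in ROS++ against ROS+ and 9.89% and 29.2% in ROS+++ against ROS++. Of 10 radial glia markers, 6 were higher and 3 lower in ROS+++ than in ROS+, and 9 were higher in ROS++ than in ROS+. Their summed level was 1001 to 1543 CPM (ROS+), 5072 to 7197 CPM (ROS++) and 2172 to 5296 CPM (ROS+++). Of 8 endothelial markers, Esam, Flt1, Tek and Tie1 were higher in ROS+++ than in ROS+, and Pecam1, Cldn5, Kdr and Cdh5 did not pass. Their sum was 46.8 to 135 CPM (ROS+), 169.8 to 445 CPM (ROS++) and 954 to 1248 CPM (ROS+++), most of it from Esam outside ROS+. Without Esam the other 7 summed to 31.1 to 102 CPM (ROS+), 6.003 to 96.4 CPM (ROS++) and 61.7 to 169 CPM (ROS+++), and the classes overlapped. All 8 oligodendrocyte markers were lower in ROS+++ than in ROS++, with sums of 1516 to 4623 CPM (ROS+), 1712 to 9065 CPM (ROS++) and 338 to 554 CPM (ROS+++). Of 5 listed leptomeningeal fibroblast markers, 3 were higher in ROS+++ than in ROS+, with sums of 1.34 to 30.6 CPM (ROS+), 70.0 to 209 CPM (ROS++) and 208 to 329.7 CPM (ROS+++). Their part in the members' levels was not tested.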
